A study of Homo sapiens and Mus musculus with 18 samples.

Results

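SOX17, FOXA1, FOXA2, FOXA3, HHEX, NOTO, SHH and CXCR4 mark definitive endoderm, notochord or both in the gastrulating embryo, and their transcripts were followed from embryonic stem cells (ESCs) to gastruloids in human and mouse. The genes were chosen by name and found by gene identifier in each species' count table. All 8 were found among the 44910 human genes, and 7 of the 8 were found among the 29720 mouse genes, 15 of the 16 in all. Mouse Noto was not analysed here.

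The series holds RNA-seq of 18 samples in 9 groups, each with 2 replicates. Human samples came from H9 ESCs in the naïve state (chemically reset, in PXGL medium, moved off mouse embryonic fibroblast feeders over passages), from H9 and RUES2-GLR ESCs in the primed state, and from RA-gastruloids at 24 h (early) or 120 h (late). RA-gastruloids are aggregates of RUES2-GLR ESCs that had been exposed to the WNT agonist CHIR99021 and to retinoic acid (RA), with Matrigel and RA given again later. RUES2-GLR carries fluorescent reporters at SOX17, SOX2 and TBXT, and whether the edited SOX17 allele changes the counted reads was not tested. The mouse groups, all from the E14Tg2a line, were naïve ESCs in 2i and LIF, epiblast-like cells (EpiLCs) made with activin A and bFGF, and early (day 3) and late (day 6) gastruloids, which were aggregated from naïve ESCs rather than from EpiLCs and given a CHIR99021 pulse. Each line stands for 1 genetic background, gastruloids were pooled, and both replicates of any stage share a collection batch, so the spread between replicates may be smaller than that between experiments.

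Definitive endoderm is the germ layer that gives rise to the gut tube, liver, pancreas and lung, and it forms at the primitive streak beside the axial mesoderm that becomes the notochord. SOX17 is an HMG-box transcription factor that specifies endoderm and also acts in blood vessels and human germ cells. FOXA1, FOXA2 and FOXA3 are forkhead factors that open chromatin at endoderm genes, and FOXA2 is also needed for the node, notochord and floor plate. HHEX is a homeobox factor of anterior endoderm and liver, NOTO is a homeobox factor of the node and notochord, SHH is the Hedgehog ligand secreted by notochord and floor plate, and CXCR4 is the receptor of the chemokine CXCL12, used as a surface marker of definitive endoderm and also present on mesoderm and endothelium.

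Total counts ranged from 3681739 to 38771193 in the human libraries and from 6487157 to 20052505 in the mouse libraries, with the second RUES2-GLR library the shallowest. Levels are given as CPM, which are counts divided by a TMM-scaled library size, and a library's floor was set at 3 counts, which was 0.0714 to 0.955 CPM in human and 0.148 to 0.446 CPM in mouse. Stage markers followed the labels. POU5F1, a pluripotency factor, fell from between 612.5 and 842.9 mean CPM in the human ESC groups to 0.499 in late RA-gastruloids, and mouse Pou5f1 was at 1152 in naïve ESCs and 85.4 in late gastruloids. TBXT, the streak and notochord factor brachyury, peaked at 126.0 CPM in early RA-gastruloids, as did mouse T at 212.5 in early gastruloids. These are bulk samples, in which fewer cells of a type and less RNA per cell cannot be told apart.

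CXCR4 and mouse Foxa1 are shown with the sequence next to their start, because each reached the highest CPM among the members of its species and the windows hold the letters of a forkhead motif. The windows are the 250 bases upstream of the canonical GENCODE start, read 5′ to 3′ on the gene's strand, from GRCh38 for CXCR4 (chr2:136118150-136118399, minus strand) and from GRCm39 for Foxa1 (chr12:57592945-57593194, minus strand). Capitals mark TGTTTAC or TGTTTGC (the forkhead core) and TATAAA (the TATA box) on either strand, and in CXCR4 the TATAAA of both strands overlap.
CXCR4: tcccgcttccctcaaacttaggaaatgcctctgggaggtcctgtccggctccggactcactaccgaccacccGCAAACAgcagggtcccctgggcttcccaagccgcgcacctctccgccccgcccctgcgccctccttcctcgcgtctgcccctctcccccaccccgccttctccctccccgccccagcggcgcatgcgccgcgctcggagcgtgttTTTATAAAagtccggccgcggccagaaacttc
Foxa1: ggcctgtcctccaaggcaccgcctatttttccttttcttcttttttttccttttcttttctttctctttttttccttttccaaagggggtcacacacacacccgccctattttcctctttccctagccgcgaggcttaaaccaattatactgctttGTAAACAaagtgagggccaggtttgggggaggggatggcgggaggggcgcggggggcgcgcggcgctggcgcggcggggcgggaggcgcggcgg
The forkhead core began 178 bases before the start in CXCR4 and 94 bases before it in Foxa1. It was also found upstream of human FOXA1 and of mouse Sox17 and Cxcr4, whose windows overlap annotated exons and are not printed. The same core was present in 4.35% of 18698 human and 6.21% of 17432 mouse windows of this length, and TATAAA in 8.51% and 8.76%. A match in letters is a description and not a binding site.

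SOX17, the endoderm specifier, was at its highest in early RA-gastruloids in human and in late gastruloids in mouse. The human counts were 87 and 107 in naïve H9, 1 and 0 in primed H9, 55 and 12 in primed RUES2-GLR, 231 and 215 in early RA-gastruloids, and 15 and 7 in late ones. These gave 5.33 ± 1.12, 0.0349 ± 0.0494, 4.16 ± 0.480, 21.9 ± 0.318 and 0.719 ± 0.00976 CPM (mean ± SD, n = 2). No 2 neighbouring groups in that order of levels overlapped. Mouse Sox17 had between 3 and 8 counts in every naïve, EpiLC and early library and 235 and 190 counts in the late gastruloids, which is 27.8 ± 0.607 CPM (n = 2). The naïve and EpiLC samples overlapped, and the late samples stood above all the others.

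Among FOXA1, FOXA2 and FOXA3, FOXA3 had the most counts in every human library. Its counts were 429 and 350 in naïve H9, 463 and 1298 in primed H9, 240 and 64 in RUES2-GLR, 206 and 197 in early RA-gastruloids, and 16 and 8 in late ones, or 21.2 ± 1.65, 31.6 ± 1.01, 19.99 ± 0.524, 19.8 ± 0.0921 and 0.794 ± 0.0280 CPM (n = 2). Naïve H9, RUES2-GLR and early samples overlapped, primed H9 lay above them and late RA-gastruloids far below. FOXA2 had between 5 and 44 counts in each human ESC and early library (group means 1.16 to 1.496 CPM) and 3 and 1 in the late ones. Neighbours in order of these means overlapped, while naïve and primed H9 did not. FOXA1 had between 0 and 7 counts in every human library.

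In mouse the counts of Foxa2 rose above those of Foxa3 in early gastruloids, and those of Foxa1 did so in late ones. Foxa2 had 1 and 2 counts in naïve ESCs, 2 and 7 in EpiLCs, 40 and 26 in early and 220 and 172 in late gastruloids, with no overlap between neighbouring groups. Foxa1 had at most 5 counts per library up to the early stage and 299 and 256 in late gastruloids (36.4 ± 2.27 CPM, n = 2). Foxa3 had 7 and 3, 9 and 14, 13 and 8, and 19 and 35 counts in the same order of stages, with a late mean of 3.71 ± 2.11 CPM.

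HHEX was highest in naïve cells in human and in late gastruloids in mouse. Human counts were 118 and 116 in naïve H9, 3 and 10 in primed H9, 32 and 4 in RUES2-GLR, 0 and 2 in early RA-gastruloids, and 22 and 9 in late ones, with group means of 6.40, 0.224, 1.94, 0.101 and 0.990 CPM that did not overlap between neighbours in order. Mouse Hhex was already present in naïve ESCs at 52 and 72 counts. It had 25 and 61 counts in EpiLCs, 194 and 106 in early and 162 and 120 in late gastruloids, or 6.85, 3.85, 9.44 and 18.4 CPM, again without overlap.

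The notochord genes NOTO and SHH had few counts throughout the human series. NOTO had 3 and 3 counts in naïve H9, 5 and 13 in primed H9, 2 and 0 in RUES2-GLR, 0 and 1 in early RA-gastruloids, and 0 and 0 in late ones. SHH had between 0 and 4 counts in every human library. At these depths a level up to the floor of each library would not have been detected. Mouse Shh had 0 to 2 counts in each library up to the early stage and 169 and 129 counts in the late gastruloids (19.4 ± 0.366 CPM, n = 2).

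CXCR4 was the most abundant member in human. Its counts were 61 and 48 in naïve H9, 10 and 43 in primed H9, 206 and 76 in RUES2-GLR, 2637 and 2569 in early RA-gastruloids, and 672 and 279 in late ones, which gave 2.97 ± 0.306, 0.861 ± 0.230, 20.5 ± 5.19, 255.7 ± 4.54 and 30.5 ± 2.93 CPM (n = 2). No groups overlapped. Mouse Cxcr4 had 8 and 17, 4 and 13, 34 and 16, and 100 and 84 counts from naïve ESCs to late gastruloids, with 12.1 ± 0.589 CPM at the end and overlap between naïve ESCs and early gastruloids.

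**Figure D1:**
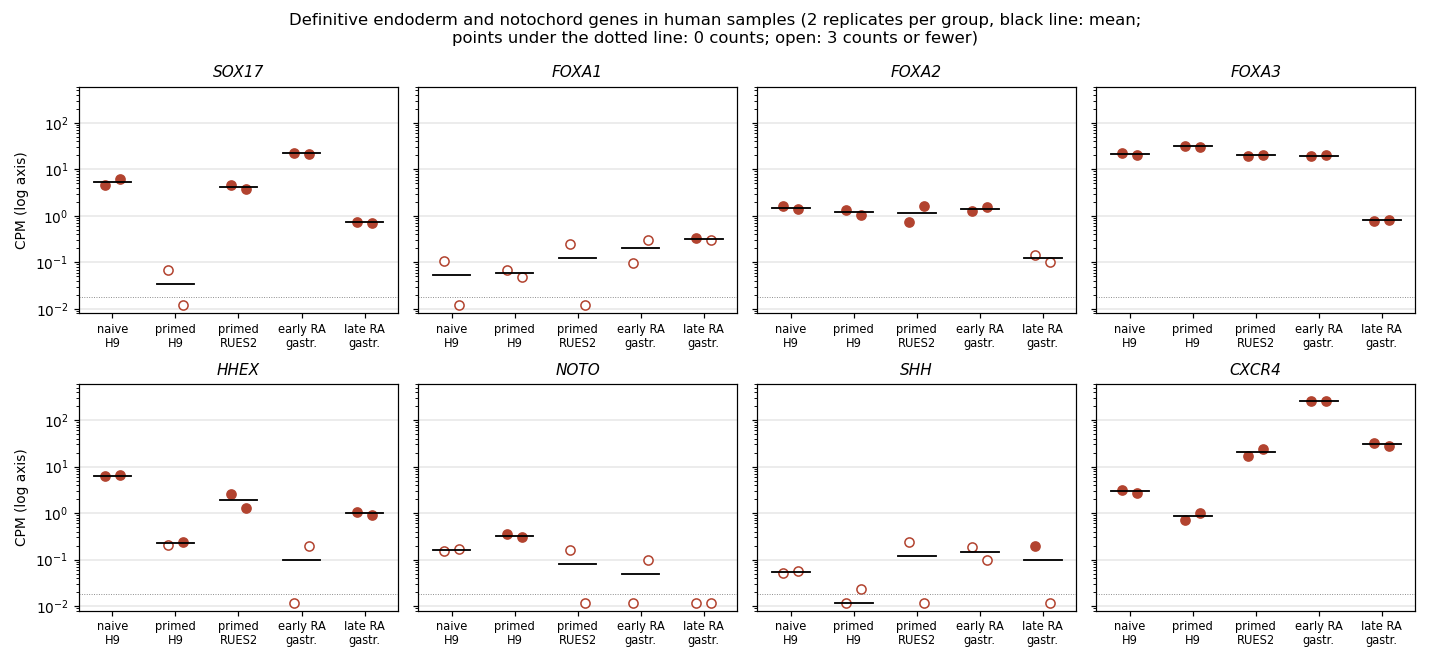
CPM of the 8 human genes in each sample on a log axis, with 2 replicates per group (points) and their mean (black line). Open points have 3 counts or fewer and points under the dotted line have 0 counts. CXCR4 and SOX17 peak in early RA-gastruloids at 255.7 and 21.9 CPM, FOXA3 lies between 19.8 and 31.6 mean CPM until it drops to 0.794 CPM in late RA-gastruloids, and FOXA1, NOTO and SHH have at most 13 counts in any library.

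**Figure D2:**
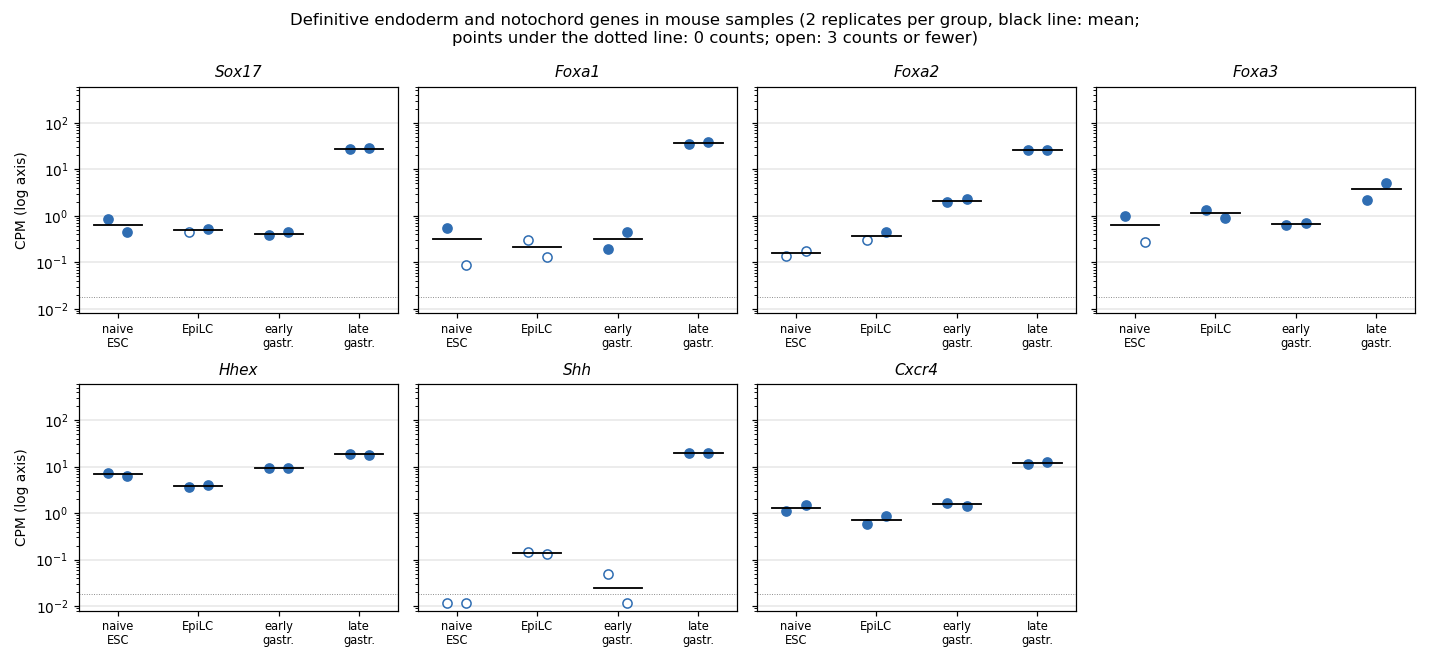
CPM of the 7 mouse genes in each sample, drawn as for human. Sox17, Foxa1, Foxa2 and Shh are highest in the late gastruloids, at 27.8, 36.4, 25.6 and 19.4 CPM, and Hhex is above the floor in every sample.

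Tests used edgeR's quasi-likelihood fit over all genes of a species, and a gene was called when its Benjamini-Hochberg adjusted p was under 0.05 and its absolute log2 fold change above 1. The expression filter kept 5 of the 8 human members, leaving out FOXA1, NOTO and SHH, and 7 of 7 mouse members. Mouse Sox17, Foxa1, Foxa3 and Shh passed it only through the late libraries, so they had to be high there, and their change to the late stage is a description. In human no member passed only through the late libraries. Where one group had no library above the floor, the ratio of summed, depth-scaled counts with its exact 95% interval is given in place of the fitted fold change, and it covers counting error only.

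From naïve to primed H9 ESCs, 3 members fell and none rose, beside 22.3% of all tested genes called lower and 25.5% called higher. SOX17 was 298.4 times lower in primed cells by summed counts (95% interval 52.9 to 11850, adjusted p = 5.37e-15). HHEX fell by 4.75 ± 0.35 on the log2 scale (SE, adjusted p = 1.65e-13) and CXCR4 fell by 1.67 ± 0.26 (adjusted p = 9.82e-07). FOXA3 was 0.57 ± 0.13 higher in primed cells on the log2 scale, which passed the p threshold (adjusted p = 0.000155) and not the fold threshold, and FOXA2 did not pass (adjusted p = 0.292). DPPA3 and PRDM1, genes of primordial germ cells that naïve pluripotent cells also express, fell with SOX17 in this comparison. Of the 6 germ cell genes tested, 4 fell and 2 rose, with KIT going from 8.04 to 30.8 CPM and DAZL from 0 counts to 2.40 CPM. The summed level of the 8 germ cell genes was 885.4 to 926.3 CPM in naïve and 83.6 to 84.95 CPM in primed H9 cells. The germ cell genes NANOS3, DDX4 and DAZL had no more than 4 counts in any naïve library. Of 14 definitive endoderm partner genes tested, 5 fell and 3 rose, with GATA6 from 38.9 to 0 and GATA4 from 17.1 to 0.118 CPM. Of 10 gut endoderm genes tested, 5 fell and 3 rose, with HNF4A from 23.97 to 0 CPM. Of 8 primitive and visceral endoderm genes tested, 3 fell and 1 rose. The part of these endoderm and germ cell genes in the SOX17 result was not tested.

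Between the primed lines, 3 members were higher in RUES2-GLR than in H9 and none was lower, beside 17.1% of all genes called higher and 12.2% called lower. SOX17 was 245.6 times higher by summed counts (95% interval 42.6 to 9842, adjusted p = 2.50e-12). CXCR4 rose by 4.35 ± 0.22 on the log2 scale (adjusted p = 9.08e-17) and HHEX by 3.27 ± 0.48 (adjusted p = 7.22e-07). FOXA3 was 1.59-fold lower in RUES2-GLR (adjusted p = 0.000166), under the fold threshold. Without the first RUES2-GLR library, whose 32 HHEX counts stand beside 4 in the second, the HHEX change was 2.56 with an adjusted p of 0.0435. Without the first primed H9 library, the group held 0 SOX17 counts. Of the 14 definitive endoderm partner genes, 4 rose and 1 fell in the same comparison, and the line and the culture that produced it cannot be told apart.

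In early RA-gastruloids compared with the RUES2-GLR ESCs they came from, SOX17 and CXCR4 rose and HHEX fell, beside 12.0% of all genes called higher and 17.6% called lower. SOX17 rose by 2.34 ± 0.23 on the log2 scale (5.06-fold, adjusted p = 3.55e-10) and CXCR4 by 3.74 ± 0.15 (13.4-fold, adjusted p = 1.17e-19). HHEX was 23.8 times lower by summed counts (95% interval 6.14 to 204.4, adjusted p = 3.66e-06). On the TMM-scaled counts FOXA3 stayed within the replicate spread, with a fitted difference of -0.0041 ± 0.15 (adjusted p = 0.997), and FOXA2 gave 0.56 ± 0.52 (adjusted p = 0.372).

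The partner genes of definitive endoderm split in this step: 9 of 14 rose and 5 fell, beside 12.0% of all genes called higher and 17.6% called lower. MIXL1, a streak homeobox factor, rose from 0.282 to 49.5 mean CPM, and CER1, a secreted NODAL and BMP antagonist, rose from 3.22 to 10.9 CPM. OTX2, an anterior homeobox factor, fell by 5.97 ± 0.18 on the log2 scale, and LEFTY1, a NODAL inhibitor, fell by 5.74 ± 0.32. In the gut list, CDX2, a posterior homeobox factor, had 0 counts in RUES2-GLR and 256.9 CPM in early RA-gastruloids, while the epithelial cadherin CDH1 fell from 959.5 to 17.3 CPM. CXCL12, the ligand of CXCR4, fell from 110.2 to 2.89 CPM in the step in which its receptor rose (adjusted p = 3.02e-21).

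From early to late RA-gastruloids, 4 members fell and 1 rose, beside 13.2% of all tested genes called lower and 11.8% called higher. SOX17 fell by 4.91 ± 0.27 on the log2 scale (adjusted p = 4.63e-16), FOXA3 by 4.64 ± 0.23 (adjusted p = 2.36e-17) and CXCR4 by 3.06 ± 0.13 (adjusted p = 8.95e-19). FOXA2 was 10.5 times lower by summed counts (95% interval 3.67 to 41.1, adjusted p = 7.21e-05). HHEX was 10.4 times higher by summed counts (95% interval 2.63 to 89.3, adjusted p = 0.000819), from 2 counts in the early libraries together to 31 in the late ones, and it did not pass the expression filter when only these groups were fitted. Both replicates of each gene lay on the same side of both replicates of the other stage.

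In mouse, no member was called from naïve ESCs to EpiLCs, against 17.7% of genes called higher and 12.1% lower. At an unadjusted p under 0.05 there was 1, Hhex, which was 1.73-fold lower (adjusted p = 0.0013) and so under the fold threshold. DESeq2 also called 0 members. From naïve ESCs to early gastruloids, Foxa2 alone was called, beside 16.2% called higher and 6.81% called lower, and it was 12.7 times higher by summed counts (95% interval 4.17 to 63.3, adjusted p = 3.47e-07). From EpiLCs to early gastruloids, Foxa2 (log2 change 2.32 ± 0.44, adjusted p = 8.32e-06), Hhex (1.28 ± 0.19, adjusted p = 4.61e-08) and Cxcr4 (1.02 ± 0.42, adjusted p = 0.0306) rose, beside 11.7% called higher and 9.24% lower. Both comparisons use the same early libraries. Sox17, Foxa1, Foxa3 and Shh, which passed the filter only through the late libraries, had at most 14 counts in any naïve ESC, EpiLC or early library. Their lack of a call in the comparisons before the late stage therefore says little. The Cxcr4 call rested on few counts and was lost in 6 of 10 alternatives, with adjusted p from 0.0856 to 0.194 without either EpiLC library or the first early library.

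From early to late mouse gastruloids, 20.1% of all tested genes were called higher and 19.1% lower. Of the 3 members that passed the filter without the late libraries, Foxa2 rose by 3.61 ± 0.19 on the log2 scale (adjusted p = 2.18e-24) and Cxcr4 by 2.93 ± 0.25 (adjusted p = 6.57e-16), while Hhex was 1.94-fold higher (log2 0.96 ± 0.15, adjusted p = 7.28e-08) and missed the fold threshold. For the 4 that passed only through the late libraries, the fitted log2 difference was 6.94 ± 0.26 for Foxa1, 6.04 ± 0.26 for Sox17 and 2.41 ± 0.44 for Foxa3, and Shh was 616.5 times higher by summed counts (95% interval 109.8 to 24430), from 1 count to 298. The fit with no filter on low counts tested each of these genes whatever its level and called Foxa1, Sox17, Foxa3 and Shh higher. It used the same libraries, so their change remains a description. Without the second late library the Foxa3 change was 1.73 on the log2 scale, since that library held 35 of its 54 late counts.

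**Figure D3:**
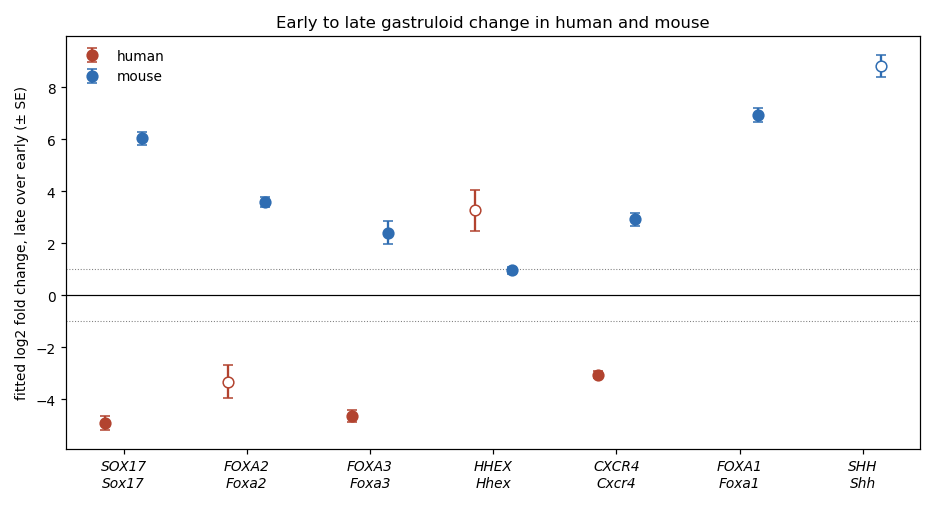
Fitted log2 fold change from early to late gastruloids with its SE, for each member tested in human (red) and mouse (blue). Open points have one stage at or under 3 counts in every library, dotted lines mark the fold threshold, and human FOXA1 and SHH were not tested. SOX17, FOXA2, FOXA3 and CXCR4 lie below 0 in human and above 0 in mouse.

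The early to late change of the species was compared in 1 fit over 14008 genes matched by symbol. FOXA1 and SHH passed the filter of this fit only through the late mouse libraries. The other 5 matched members differed at an adjusted p under 0.05, beside 59.3% of all genes. The human change was lower than the mouse change for SOX17 (log2 difference -10.82 ± 0.37, adjusted p = 1.65e-23), CXCR4 (-5.84 ± 0.25, adjusted p = 6.69e-21), FOXA3 (-6.90 ± 0.49, adjusted p = 1.83e-14) and FOXA2 (-6.78 ± 0.62, adjusted p = 1.31e-11). For FOXA1 and SHH human counts stayed low in both stages and mouse counts were high in the late one, which the filter required. HHEX was the exception, with a larger rise in human (adjusted p = 0.0100) that was lost without the first early RA-gastruloid library (adjusted p = 0.171). In the step from the starting ESCs to early gastruloids, 4 of the 7 differed, a share near the 56.6% of all genes. The change was higher in human for SOX17 (2.73 ± 0.69) and CXCR4 (3.39 ± 0.44) and lower for FOXA2 (-3.17 ± 0.84) and HHEX (-5.06 ± 0.69). HHEX had 2 counts in the early human libraries together and Foxa2 had 3 in the naïve mouse ones, so these 2 values rest on few counts. The species also differed in protocol, line, hours in culture and the pluripotent state of the starting cells, and these cannot be told apart from species.

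FOXA1, FOXA2 and FOXA3 were then compared within each sample on a per-length scale, TPM. It also divides by transcript length, which allows levels of different genes to be set side by side. FOXA3 made up 93.7% to 97.4% of the FOXA transcripts in the 8 human ESC and early libraries, where the 3 genes together reached 21.0 to 69.1 TPM. In the late human libraries the sum was 1.96 and 2.00 TPM. FOXA3 alone was at 66.8 and 63.2 TPM in primed H9, 20.25 and 20.25 in RUES2-GLR, and 36.25 and 36.6 in early RA-gastruloids. TPM is not TMM-scaled, and after division by length it has a fixed total in each library. Whether FOXA3 was level between RUES2-GLR and early RA-gastruloids therefore depends on the scale used. Foxa3 was also the largest share in the 4 mouse ESC and EpiLC libraries, on few counts. Its share was 67.9% and 56.3% of the naïve ESC sums, and EpiLCs had 75.4% and 65.9%. In mouse the sum was between 0.759 and 3.04 TPM in ESCs and EpiLCs, 4.23 and 4.98 TPM in early gastruloids and 81.5 and 88.1 TPM in late ones. Foxa2 was 69.0% and 66.9% of the early mouse sum, and in the late gastruloids Foxa1 took 46.8% and 46.2%, Foxa2 48.3% and 43.5% and Foxa3 4.86% and 10.3%. TPM of the species come from separate tables and share a fixed total within each library, so sums are not compared across species.

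**Figure D4:**
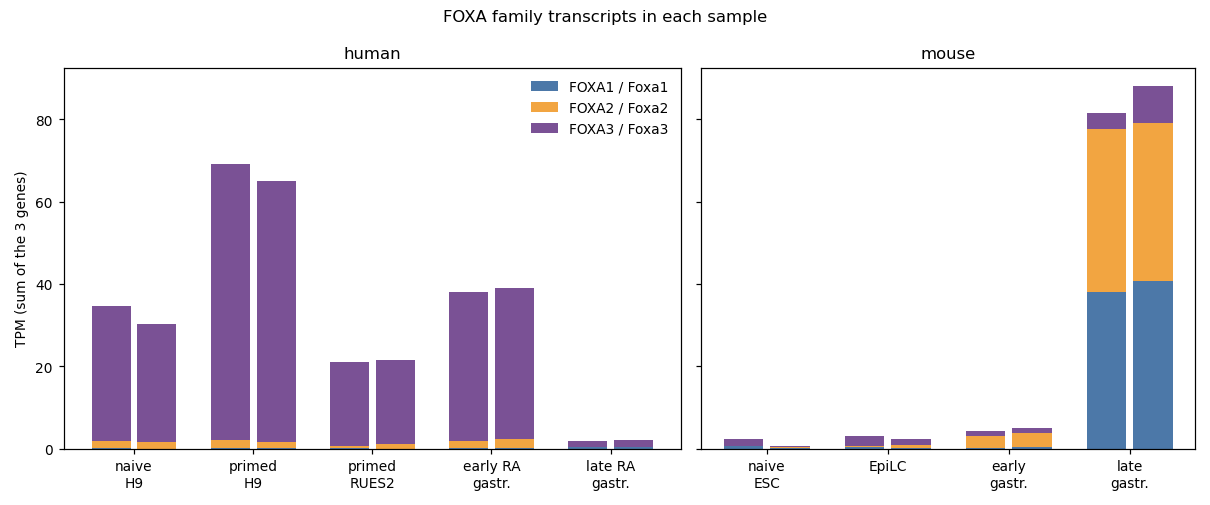
TPM of FOXA1, FOXA2 and FOXA3 stacked for each sample, with 2 bars (replicates) per group, in human (left) and mouse (right). Human bars up to the early stage are almost all FOXA3 (93.7% to 97.4%), and the late mouse bars of 81.5 and 88.1 TPM are mostly Foxa1 and Foxa2.

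Related genes were read from 9 lists, whose counts from early to late stand beside 11.8% of all tested genes called higher and 13.2% lower in human and 20.1% higher and 19.1% lower in mouse. Of the list genes tested, 2 of 84 in human and 20 of 90 in mouse passed the filter only through the late libraries and so had to be high there. Of 14 definitive endoderm partners, 12 fell and 2 rose from early to late in human, whereas 8 rose and 4 fell in mouse, and the median log2 change was -2.80 and 1.44 beside 0.00 and -0.03 over all tested genes. The receptor KIT, which many lineages use, was among the human rises, from 8.73 to 82.95 CPM. The largest human falls were the tight junction gene CLDN6 (275.0 to 1.49 CPM) and CER1 (10.9 to 0.199 CPM). In mouse, the zinc finger factor Gata6 rose from 0.639 to 174.8 CPM, while Lefty1 fell from 286.4 to 21.1 CPM and Otx2 from 137.4 to 24.9 CPM. The change was lower in human than in mouse for 11 of the 14 and higher for 1 in the test of the difference. Of all matched genes, 59.3% differed in that test, in either direction.

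Among gut endoderm genes in human, 7 of 10 tested fell and 1 rose, with VIL1, a microvillus protein, falling from 18.2 CPM to 0 counts and CDH1 from 17.3 to 0.0993 CPM. In mouse 7 of 12 rose and 4 fell, while the summed level of the list went from between 983.9 and 1016 CPM in early to between 356.6 and 363.4 CPM in late gastruloids. Spink1, a trypsin inhibitor of early gut, and Ttr, the thyroxine carrier made by liver and visceral endoderm, went from 0 counts in both early libraries to 87.2 and 21.2 mean CPM, while the claudin Cldn4 fell from 230.0 to 30.99 CPM. AFP was at 0 in both late human libraries and mouse Afp had 3 and 11 counts in the late gastruloids.

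Of 14 notochord genes, 6 fell and 4 rose in human (all genes, 13.2% and 11.8%) and 10 rose and 2 fell in mouse (all genes, 20.1% and 19.1%). TBXT and mouse T fell in both, from 126.0 to 1.13 CPM and from 212.5 to 12.8 CPM. The collagen gene COL2A1 rose in both, from 115.1 to 1346 CPM in human and from 12.5 to 210.5 CPM in mouse, and cartilage also makes it. FOXJ1, a factor of motile cilia, rose from 0.837 to 25.97 CPM in human and fell from 15.5 to 5.06 CPM in mouse. KRT19 fell from 1392 to 10.4 CPM in human, and Sox9 rose from 0.833 to 29.6 CPM in mouse. In the floor plate list, 4 of 7 rose and 1 fell in human (LMX1A from 0.192 to 16.4 CPM, SULF1 from 33.0 to 431.6 CPM) and 3 of 5 rose and 1 fell in mouse (Spon1 from 0.441 to 39.6 CPM, Corin from 0 counts to 12.8 CPM, Ntn1 down from 163.1 to 32.0 CPM). LMX1A also marks the dorsal neural tube, and Corin and Spon1 are expressed in other tissues.

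Of the Hedgehog pathway genes tested, 8 of 15 rose and 3 fell in human, beside 11.8% and 13.2% of all genes, and 11 of 15 rose and none fell in mouse, beside 20.1% and 19.1%. SCUBE2, which helps release the ligand, rose from 0.590 to 167.4 CPM in human, and the ligand-binding inhibitor HHIP rose from 0.630 to 39.96 CPM. In mouse, Ihh, the Indian hedgehog ligand, rose from 0.211 to 12.4 CPM and Hhip from 0.466 to 10.8 CPM. GLI1 and PTCH1, a transcription factor and a receptor, are among the genes induced by Hedgehog signalling. They moved in opposite directions between the species, while HHIP rose in both. Whether the Hedgehog response as a whole changed was not tested. GLI1 fell from 10.6 to 1.69 CPM and PTCH1 from 210.8 to 77.2 CPM in human, whereas mouse Gli1 rose from 5.22 to 36.97 CPM and Ptch1 from 92.1 to 231.1 CPM, the mouse genes being named after their values were seen. The difference between species was -5.30 ± 0.28 for GLI1 (adjusted p = 5.14e-18) and -2.63 ± 0.13 for PTCH1 (adjusted p = 5.68e-19). They were the only 2 of the 15 that were called lower in human and higher in mouse, and 7 were called higher in both. In the step before, PTCH1 had risen from 33.2 to 210.8 CPM in human while SHH stayed at 3 counts or fewer in every RUES2-GLR and early library. The part of other Hedgehog ligands in this rise was not tested.

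CXCL12 and the scavenger receptor ACKR3 both rose from early to late in each species. CXCL12 went from 2.89 to 14.8 CPM in human and from 9.61 to 109.7 CPM in mouse, so that ligand and receptor moved in opposite directions in human and in the same direction in mouse.

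**Figure D5:**
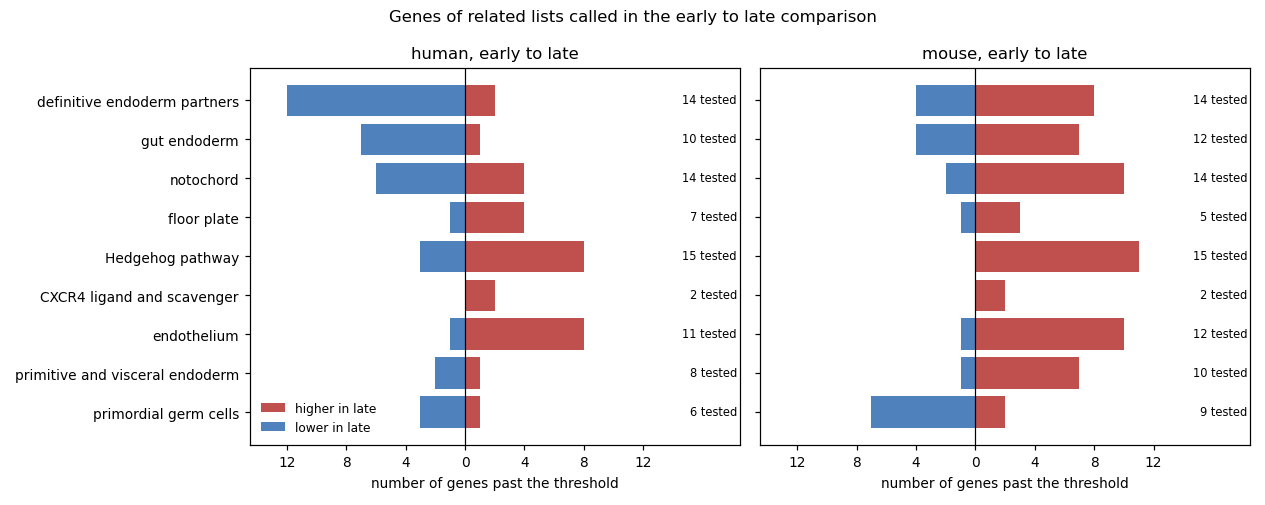
Number of genes of each list called higher (red, right) or lower (blue, left) from early to late gastruloids in human and mouse, with the number tested at the right. Definitive endoderm partners are mostly lower in human (12 of 14) and mostly higher in mouse (8 of 14).

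Genes of other cell types that use SOX17, CXCR4 or GATA factors moved in the same steps. The 12 endothelial genes summed to between 154.2 and 155.1 CPM in early and between 334.9 and 340.1 CPM in late mouse gastruloids, and 10 of 12 rose, with Cdh5 from 0.0493 to 48.2 CPM and Tie1 from 0.0439 to 33.6 CPM, whereas Pecam1, which naïve ESCs also express, fell from 125.9 to 29.7 CPM. The 10 primitive and visceral endoderm genes summed to between 594.0 and 615.6 CPM early and between 1595 and 1616 CPM late in mouse, 7 rising and 1 falling, with Pdgfra, which mesoderm also expresses, from 1.19 to 248.2 CPM. In human, the endothelial sum was 32.96 to 33.6 CPM early and 70.8 to 86.6 CPM late, with 8 of 11 higher and 1 lower, in the step in which SOX17 and CXCR4 fell. In the step before, where both rose, 7 of the 11 fell and 1 rose, beside 17.6% of all genes called lower and 12.0% called higher. Of the germ cell genes, 3 of 6 tested fell and 1 rose from early to late in human, and 7 of 9 fell and 2 rose in mouse. DPPA3 was at 0 counts in all early and late human libraries. The part of these cell types in the values of SOX17 and CXCR4 was not tested.

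The genes whose levels ran most nearly in parallel with a member were found by Pearson's r of log2 CPM over the 10 human or 8 mouse samples. These samples come in pairs per group and a gene that is high at 1 stage shares its pattern with many others, so r is a description. For human SOX17 they were BMP2 (r = 0.978), BGN (0.970) and VDAC2 (0.968), for CXCR4 MAOA (0.991), COMMD8 (0.981) and YWHAZ (0.976), for FOXA3 PRKCD (0.994), PYCARD (0.993) and SYN3 (0.989), and for HHEX CEP95 (0.983), NDUFC2 (0.976) and RPS25 (0.971). In mouse the nearest genes were Jcad (0.999), Fstl1 (0.998) and Spink1 (0.998) for Sox17, Meis1 (0.999) for Foxa1, Tab2 (0.999) for Foxa2, Fat4 (0.9995) for Shh, Foxj2 (0.999) for Cxcr4 and Dvl3 (0.997) for Hhex. On the log2 TPM scale 9 of the 30 nearest genes (3 per member) were found again.

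By GENCODE and the count tables, the human members lie on chromosome 8 (SOX17), 14 (FOXA1), 20 (FOXA2), 19 (FOXA3), 10 (HHEX), 2 (NOTO and CXCR4) and 7 (SHH) of GRCh38, and the mouse members on chromosome 1 (Sox17 and Cxcr4), 12 (Foxa1), 2 (Foxa2), 7 (Foxa3), 19 (Hhex) and 5 (Shh) of GRCm39. Human FOXA1 shares 16 of its 4414 exon bases with TTC6 on the opposite strand. The counting did not use the strand, and TTC6 had no more than 6 counts in any library.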

How the data were processed

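The authors isolated polyadenylated RNA, made libraries with the NEBNext Ultra II kit, sequenced them as paired reads, trimmed with Trimmomatic 0.39, mapped with STAR (human to GRCh38, mouse to GRCm39) and counted reads per gene with featureCounts at default settings, which ignore strand and reads that align to several places. The annotation release is not given in the sources used here. The deposited values are whole-number read counts per gene, not normalized, in 1 table per species, and the proteome was not analysed here.

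Symbols came from GENCODE release 44 (human) and M39 (mouse), which named 44876 of 44910 and 29486 of 29720 genes. The members and the gene lists were chosen with earlier results of these data known. Counts were scaled by TMM and filtered by filterByExpr, leaving 18300 human and 15003 mouse genes, and tested with glmQLFit and glmQLFTest in edgeR 4.0.16 (R 4.3.3), with each species fitted once and each group given its own coefficient. The species difference was an interaction in 1 fit of the 18 samples over genes matched by symbol. The fit was tested on simulated data. Genes outside the members were named by a rule: at most the 2 largest rises and falls per list among called genes with at least 10 CPM in the higher group; further list genes were named after their values were seen. Some genes that the rule names are not reported here. TPM used the tables' exon lengths, and likeness searched genes at 5 CPM or more. Alternatives were DESeq2 1.42.0, other size factors, other filters, the fold threshold left out, only the groups compared, a replicate block, and each library left out.

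Replicates differed by more than sampling noise in each group (chi-square per degree of freedom 1.55 to 13.2). Total counts set the floor of each library, and intervals cover counting error only.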

Additional observations from a re-analysis of the deposited data

Results flagged for a closer look

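The early to late change differed between the species for the members matched by symbol, in an edgeR test of the difference itself, beside 59.3% of all matched genes. FOXA1 and SHH passed the filter of that fit only through the late mouse libraries, so their differences are descriptions. The fitted log2 difference, human minus mouse, was -10.82 for SOX17, -6.10 for FOXA1, -6.78 for FOXA2, -6.90 for FOXA3, -8.92 for SHH and -5.84 for CXCR4, and 2.44 for HHEX. The values of FOXA1, SHH, FOXA2 and HHEX include a human group with 3 counts or fewer in each library or nearly so, depend on the prior count of the fit and are not bounds. SOX17 was higher in early than in late samples in 2 of 2 human replicates and lower in 2 of 2 mouse replicates, and CXCR4, FOXA2 and FOXA3 showed the same split.

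The change from starting ESCs to early gastruloids differed for SOX17 (2.73, adjusted p = 0.000901), FOXA2 (-3.17, adjusted p = 0.00164), HHEX (-5.06, adjusted p = 9.64e-08) and CXCR4 (3.39, adjusted p = 3.20e-08), beside 56.6% of all genes. The share of members that differed was near that of all genes. The FOXA2 and HHEX values include a group with 3 counts or fewer in each library. The starting cells were primed in human and naïve in mouse, so the pluripotent state, line and protocol cannot be told apart from species in these values.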

How the results depend on the processing

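The 35 calls of members were recomputed in 368 combinations of call and alternative. Alternatives that left the gene untested or without an adjusted p are not counted among the 368. The calls include the early to late changes of mouse Sox17, Foxa1, Foxa3 and Shh and the species differences of FOXA1 and SHH. Those genes passed the filter only through the late mouse libraries. Of the 368 combinations, 360 kept direction and threshold, 8 lost the threshold and 0 turned direction. The 8 were mouse Cxcr4 from EpiLCs to early gastruloids in 6 alternatives, the species difference of FOXA1 without the second early RA-gastruloid library (adjusted p = 0.0829) and that of HHEX without the first (adjusted p = 0.171). Requiring at least 10 counts in each sample compared removed low members from the test, which left 1 lower member from naïve to primed H9, 1 higher in RUES2-GLR, 0 lower from RUES2-GLR to early, 0 higher and 1 lower from early to late RA-gastruloids, 0 higher from mouse naïve to early, 1 higher from EpiLCs to early and 2 higher from early to late. With the adjusted p alone, 1 member (FOXA3) was higher from naïve to primed H9, 1 was lower in RUES2-GLR, 1 was lower from mouse naïve ESCs to EpiLCs and 2 were higher from naïve to early. Fitting only the groups compared gave 0 higher members from early to late RA-gastruloids, since HHEX did not pass the expression filter of that fit.

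Leaving out each library kept every human count as in the report. The counts of higher members ranged from 2 to 3 for EpiLCs to early and from 6 to 7 for early to late mouse gastruloids, where Hhex is the seventh. The early to late counts include Sox17, Foxa1, Foxa3 and Shh, which had to be high in the late libraries to pass the filter. The species difference in the early to late change ranged from 0 to 1 members higher and from 5 to 6 lower in human. Among the 6, FOXA1 and SHH passed the filter only through the late mouse libraries. The species difference of SHH moved furthest, from -8.92 to -12.87 on the log2 scale without the first late RA-gastruloid library. Fitted changes against early RA-gastruloids for HHEX (from early to late, 2.29 to 7.08), against primed H9 for SOX17 and against early gastruloids for Shh also rest on single counts.

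The sample titles do not say whether replicate numbers mark a batch shared across stages. Deviations of same-numbered samples correlated between -0.112 and 0.0684 in human and between -0.0484 and 0.00805 in mouse, which is a description. With the replicate block, each count of called members was the same as without it. For example, 4 were lower and 1 higher from early to late RA-gastruloids, and 6 were higher from early to late mouse gastruloids. Among those 6, Sox17, Foxa1, Foxa3 and Shh passed the filter only through the late libraries, so they had to be high there. On the log2 TPM scale, 9 of the 30 nearest genes by likeness were shared with the log2 CPM scale.

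The 2 replicates per group, and 3681739 counts in the shallowest library, limit what can be said of FOXA1, NOTO and SHH in human, which had at most 13 counts in any library.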
